A study of Mus musculus with 9 samples.

Results

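The Usp genes, nearly all of which encode ubiquitin-specific proteases, are represented here by 51 of the 37980 genes in the tables. They were chosen by a symbol that starts with Usp and a number, with no use of their levels except that where a symbol was repeated the row with the highest level was kept. RNA was sequenced from female mouse germ cells of 4 cell types, namely E12.5 PGCs (3 libraries), FGSCs (2 libraries), GV oocytes (2 libraries) and MII oocytes (2 libraries). E12.5 PGCs are the precursors of the gametes in the fetal gonad, FGSCs are the female germline stem cells isolated from the ovaries of young mice, GV oocytes are arrested in meiotic prophase with an intact germinal vesicle, and MII oocytes are arrested at the second metaphase, ready for fertilisation. The labels give the strain C57BL/6 and no treatment for every sample, and the paper describes Mvh-cre; ROSA mT/mG mice, in which Cre driven by the Mvh promoter switches on GFP in germ cells, as the source of the PGCs and FGSCs, both sorted for GFP. The paper collected fully grown oocytes from C57BL/6 mice primed with PMSG, which the labels do not name, and the origin of the MII oocytes is not given in the sources used here. Each gene had 1 pooled FPKM value (fragments per kilobase of transcript, scaled to the number of fragments mapped) per cell type, so these values give no spread between replicates and no test was run on them. All differences below compare these pooled values.

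Ubiquitin is a small protein that is joined to other proteins in single copies or in chains, and that marks them for the proteasome, for sorting between membranes, or for a change of activity. Deubiquitinases cut it off again, and the ubiquitin-specific proteases are the largest family among them, with members at chromatin, DNA lesions, the proteasome, endosomes, mitochondria and the spindle. An oocyte that leaves the prophase arrest does so without transcription, on mRNAs stored during growth whose poly(A) tails are lengthened or shortened, and protein degradation through ubiquitin drives the meiotic divisions that follow.

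The Usp genes were expressed in all 4 cell types, and their summed level was highest in MII oocytes. At a level of at least 1 FPKM there were 38 of the 51 genes in PGCs, 41 in FGSCs, 41 in GV oocytes and 42 in MII oocytes, and 48 reached this level in at least 1 cell type. The 3 that did not were Usp44, which removes ubiquitin from histone H2B, the Y-linked Usp9y and Usp17l5 of a multicopy group, which was listed at 0 in every cell type. The summed FPKM of the 51 genes was 625 in PGCs, 598 in FGSCs, 810 in GV oocytes and 3278 in MII oocytes. As a share of the FPKM of all genes this was 0.0908% in PGCs, 0.143% in FGSCs, 0.145% in GV oocytes and 0.266% in MII oocytes. MII oocytes were highest by both measures, PGCs were lowest by the share, and FGSCs and GV oocytes had nearly the same share. No Usp gene reached 100 FPKM in PGCs or FGSCs, 1 did in GV oocytes and 10 did in MII oocytes. Among the genes at 1 FPKM or more, the median level of the Usp genes was 6.20, 6.59, 12.4 and 15.3 FPKM in PGCs, FGSCs, GV oocytes and MII oocytes, where the median of all genes was 9.41, 8.06, 8.62 and 11.8 FPKM.

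**Figure D1:**
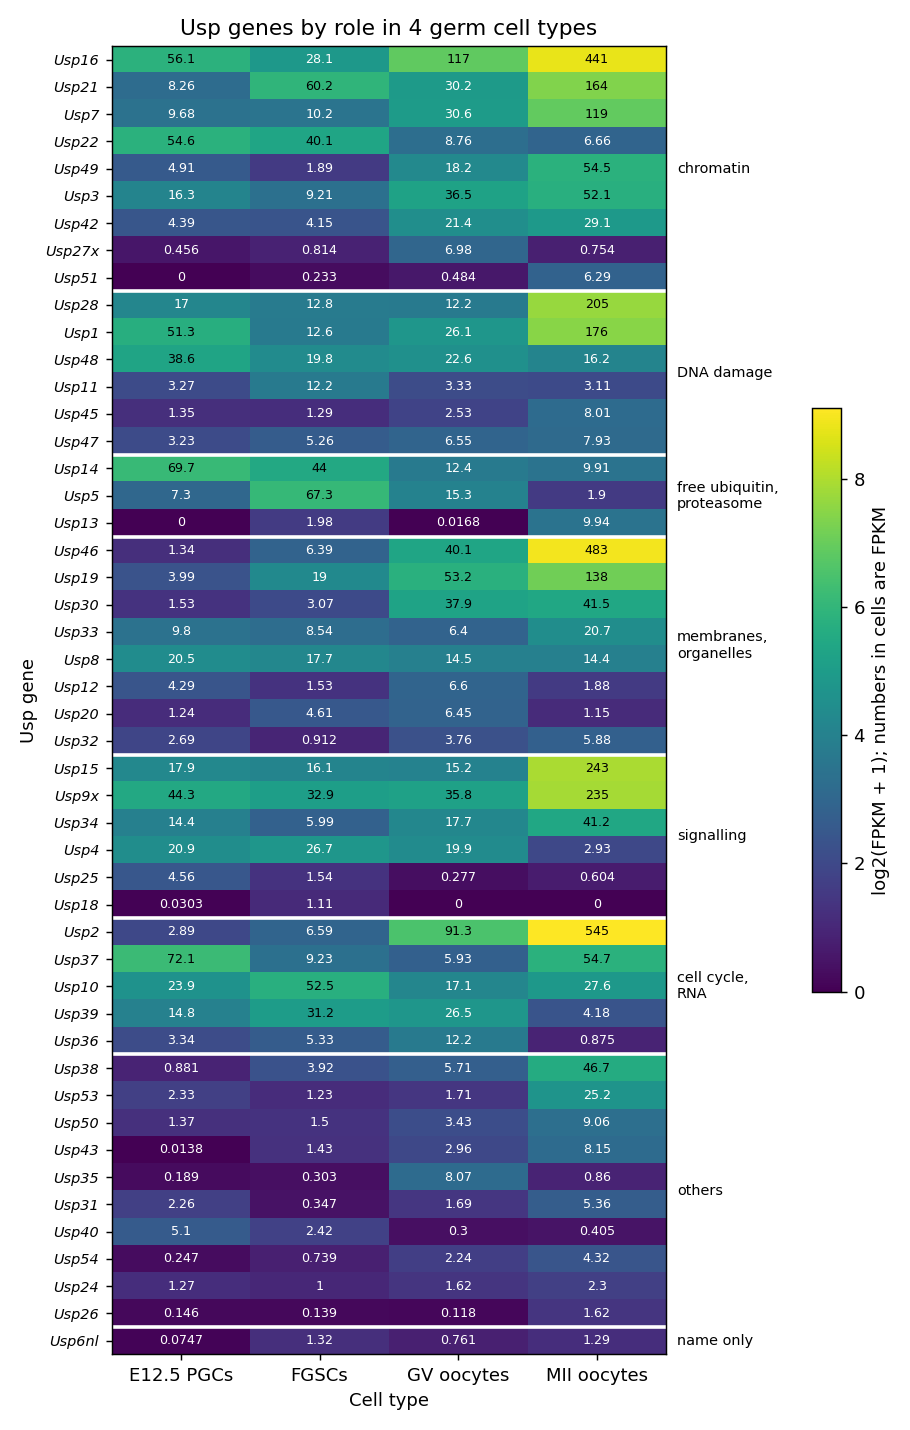
Level of each of the 48 Usp genes that reached 1 FPKM, as log2(FPKM + 1), in each of the 4 cell types. Each cell of the plot is 1 pooled value, printed in FPKM, and the brightest cells are those of Usp2, Usp46 and Usp16 in MII oocytes at 545, 483 and 441 FPKM.

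The leading gene of the family differed between the cell types. In PGCs it was Usp37, which acts on cyclin A, with 11.5% of the summed Usp FPKM. In FGSCs it was Usp5, which takes apart free ubiquitin chains, with 11.3%. In GV oocytes it was Usp16, which removes ubiquitin from histone H2A, with 14.5%. In MII oocytes it was Usp2, which acts on cyclin D1 and Mdm2, with 16.6%. Next in rank were Usp14 in PGCs at 11.1% and Usp21 in FGSCs at 10.1%. In GV oocytes Usp2 came next at 11.3%, and in MII oocytes Usp46 at 14.7%. With pooled values alone, the order of genes with close shares is not firm. Usp2 ranked 29 of 51 in PGCs and 21 in FGSCs, and 2 and 1 in GV and MII oocytes. These shares are ratios within a cell type, so they do not depend on how the cell types were scaled to each other.

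The tables were not on a common sum, which bears on every difference below. FPKM over all genes summed to 688452 in PGCs, 417929 in FGSCs, 558064 in GV oocytes and 1232440 in MII oocytes. Differences are given on the log2(FPKM + 1) scale, which understates the change of low genes, among genes with at least 1 FPKM in one of the cell types compared, and a gene is called higher or lower when it differed by at least 1 on this scale (2-fold). In MII against GV oocytes the median difference of all genes was 0.37 with the FPKM as deposited and -0.78 when each cell type was rescaled to the same sum, so counts are given in both forms. The 7 germ cell markers summed to 1475, 696, 4606 and 11186 FPKM in PGCs, FGSCs, GV oocytes and MII oocytes. They did not move together, since 5 were higher and 1 lower in GV oocytes than in PGCs, and 2 were higher and 3 lower in MII than in GV oocytes. Ddx4, the helicase also called Mvh, was at 64.0, 59.0, 31.9 and 17.2 FPKM, Nanos3 was listed at 0 in MII oocytes, and all 10 oocyte markers were at 1 FPKM or more in both kinds of oocyte. The 10 markers of granulosa cells summed to 132, 288, 67.5 and 21.7 FPKM in the same order, and the 5 of erythroid cells to 5585, 4619, 28.9 and 1.38 FPKM. The part of these other cells in the Usp levels was not tested, and in bulk samples fewer cells of a type and less RNA per cell cannot be told apart.

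In FGSCs against PGCs, 13 of the 43 Usp genes compared were higher and 7 were lower, beside 24.8% and 21.0% of all genes. This is 30.2% and 16.3% of the Usp genes, near the background, and their median difference of -0.066 was near the -0.093 of all genes. Rescaled to a common sum, 19 of 45 were higher and 3 lower, beside 41.8% and 9.21% of all genes. Ratios were taken only for genes at 0.5 FPKM or more in both cell types. The largest among the genes that were higher were those of Usp5 and Usp21, at 9.22 and 7.28 times the PGC level. The genes that were lower included Usp37, at 72.1 FPKM in PGCs and 9.23 in FGSCs, and Usp1, at 51.3 and 12.6 FPKM. Of the marker sums given above, that of granulosa cells was higher in FGSCs than in PGCs and that of erythroid cells was lower. In PGCs and FGSCs, markers of endothelial cells summed to 26.4 and 36.2 FPKM, and those of leukocytes to 9.64 and 9.04. Those of mesenchyme summed to 163 and 104 FPKM. The part of these cells in the Usp differences was not tested.

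In GV oocytes against PGCs, 17 of 43 Usp genes were higher and 5 lower, beside 34.3% and 31.3% of all genes. The share that was lower, 11.6%, was below the background, and the median difference was 0.58 where that of all genes was 0.012. Rescaled, 22 of 44 were higher and 5 lower, beside 40.4% and 27.2% of all genes. In GV oocytes against FGSCs, 15 of 46 were higher and 8 lower, beside 28.1% and 28.0% of all genes. Rescaled, 15 of 46 were higher and 10 lower, beside 23.9% and 38.6%. Among Usp genes at 0.5 FPKM or more in both cell types compared, Usp2 had the largest ratio in both comparisons. It was at 31.6 times the PGC level and 13.9 times the FGSC level. Genes below 0.5 FPKM in one of them, such as Usp35, were not ranked.

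In MII against GV oocytes, 23 of 45 Usp genes were higher and 8 lower, beside 39.3% and 30.5% of all genes. The median difference was 1.18 in the Usp genes. Rescaled, 12 of 45 were higher and 12 lower, beside 23.7% and 45.7%, and the median was 0.077, so that higher genes no longer outnumbered lower ones. Centred on the median of all genes, 16 were higher and 8 lower, and the share of all genes was not computed in this form. Relative to the median of all genes, the Usp median was higher by 0.81 as deposited and by 0.85 when rescaled.

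As deposited, Usp genes and all genes alike were called more often in MII than in GV oocytes against PGCs and against FGSCs. Rescaled, 20 of 45 Usp genes in MII oocytes and 22 of 44 in GV oocytes were higher than in PGCs, beside 36.1% and 40.4% of all genes. Lower than in PGCs were 12 of 45 and 5 of 44, beside 42.9% and 27.2% of all genes. Against PGCs, 27 of 45 Usp genes were higher and 9 lower in MII oocytes, beside 44.8% and 34.6% of all genes, and rescaled 20 were higher and 12 lower, beside 36.1% and 42.9%. Against FGSCs, 28 of 46 were higher and 10 lower, beside 41.3% and 35.3%, and rescaled 17 of 47 were higher and 15 lower, beside 25.1% and 53.6%. These comparisons share cell types, so they are not separate evidence. Of the 48 genes that reached 1 FPKM, 29 (60.4%) were highest in MII oocytes, 7 in PGCs, 7 in FGSCs and 5 in GV oocytes. Among all genes that reached 1 FPKM, 38.4% were highest in MII oocytes. After rescaling, 20 Usp genes (41.7%) were highest in MII oocytes, beside 25.9% of all genes.

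**Figure D2:**
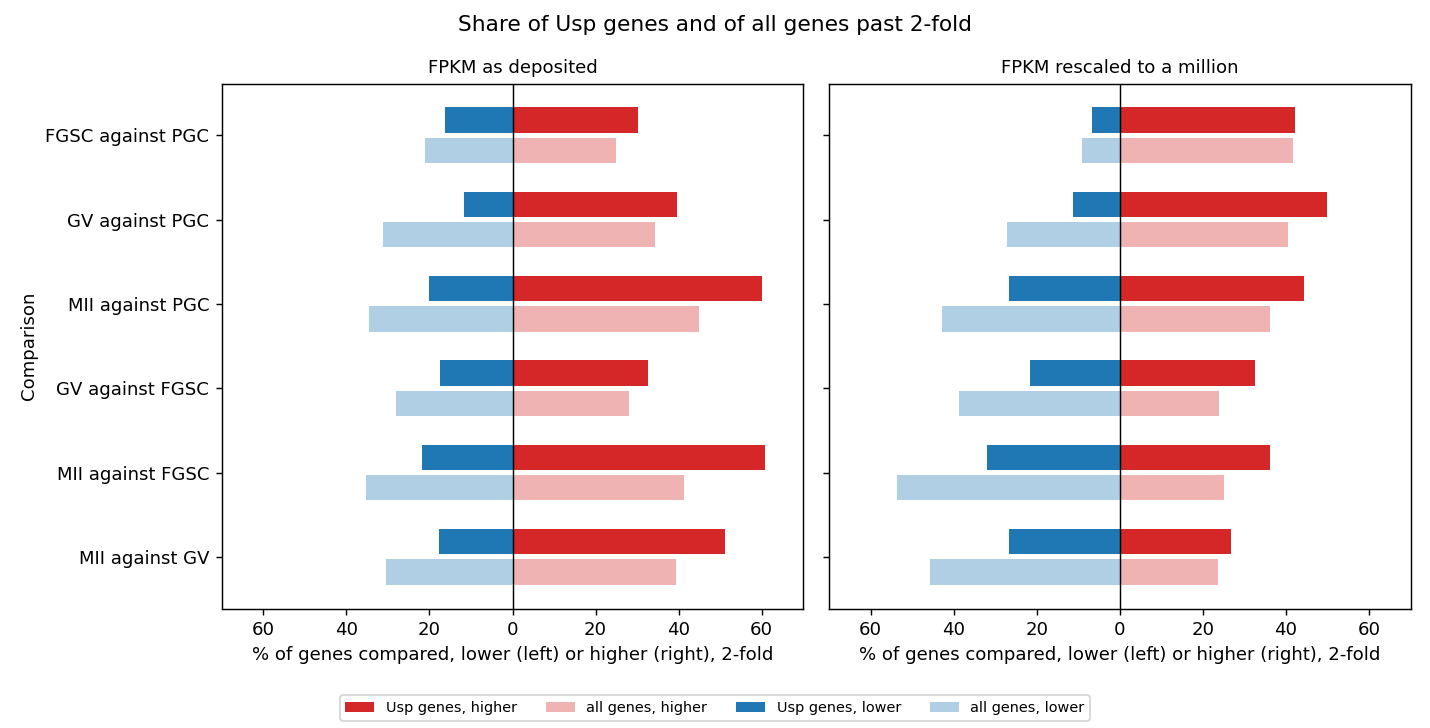
Percent of Usp genes and of all genes that were at least 2-fold higher (right of 0) or lower (left of 0) on the log2(FPKM + 1) scale in each of the 6 comparisons, for the FPKM as deposited (left panel) and rescaled to a common sum (right panel). In MII against GV oocytes 51.1% of Usp genes were higher as deposited and 26.7% after rescaling, beside 39.3% and 23.7% of all genes.

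Of the proteases that act on histones and other chromatin proteins, 7 of the 8 compared were higher in GV oocytes than in PGCs and 1 was lower, both as deposited and rescaled, beside the shares of all genes in that comparison given above (34.3% and 31.3% as deposited). In MII against GV oocytes, 5 of 9 were higher and 1 lower as deposited, beside 39.3% and 30.5% of all genes. Rescaled, 2 of them were higher and 2 lower, beside 23.7% and 45.7% of all genes. Their summed level was 155 FPKM in PGCs, 155 in FGSCs, 270 in GV oocytes and 874 in MII oocytes. Usp16, which removes ubiquitin from histone H2A, was at 56.1 FPKM in PGCs, 28.1 in FGSCs, 117 in GV oocytes and 441 in MII oocytes. Usp21, another enzyme of H2A, had 8.26, 60.2, 30.2 and 164 FPKM. It was therefore higher in FGSCs than in PGCs or GV oocytes. Usp7, which acts on Mdm2 and p53 and binds Uhrf1, was at 9.68, 10.2, 30.6 and 119 FPKM. As deposited, PGCs and FGSCs had nearly the same value, and each kind of oocyte was above both. Usp3, which also acts on H2A, was at 16.3, 9.21, 36.5 and 52.1 FPKM. Usp42, which acts on p53 in human cells, had 4.39, 4.15, 21.4 and 29.1 FPKM. In these 2 genes GV and MII oocytes differed by less than 2-fold as deposited. Usp49, which acts on H2B in human cells, was at 4.91, 1.89, 18.2 and 54.5 FPKM, and 51.8% of the stretches of 50 bases in its transcript also occur in the transcript of another gene model, Gm20517, so its level is uncertain.

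Usp22 was the gene of this group that was lower in GV oocytes than in PGCs. It is the catalytic subunit of the deubiquitinase module of the SAGA complex, which removes ubiquitin from H2B, and it was at 54.6 FPKM in PGCs, 40.1 in FGSCs, 8.76 in GV oocytes and 6.66 in MII oocytes. The values fall into a high pair, PGCs and FGSCs, and a low pair, the oocytes, with a ratio of 4.58 between FGSCs and GV oocytes. Its close relatives Usp27x and Usp51, both X-linked, can take its place beside the same partners in human cells. Usp27x was at 0.456, 0.814, 6.98 and 0.754 FPKM, and so was high in GV oocytes alone. Usp51 was listed at 0 in PGCs and was at 0.233 FPKM in FGSCs, 0.484 in GV oocytes and 6.29 in MII oocytes. Within each pair, Usp22 had 99.2% of the FPKM of Usp22 and Usp27x in PGCs and 55.6% in GV oocytes, and 94.8% of that of Usp22 and Usp51 in GV oocytes and 51.4% in MII oocytes. Of the partners in the module, Eny2 was at 50.8, 25.3, 52.0 and 264 FPKM and Atxn7l3 at 0.272, 3.91, 2.87 and 0.0196 FPKM.

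Among the proteases of the DNA damage response, Usp28 and Usp1 had the highest levels in MII oocytes, and Usp1 in PGCs and GV oocytes. Usp1, which acts with Wdr48 on Fancd2 and PCNA, was at 51.3 FPKM in PGCs, 12.6 in FGSCs, 26.1 in GV oocytes and 176 in MII oocytes. FGSCs were thus the lowest of the 4, and 22.8% of the stretches of 50 bases in the Usp1 transcript are shared with the gene model Gm5841. Usp28, which stabilises Myc and binds 53BP1, was at 17.0, 12.8, 12.2 and 205 FPKM. The first 3 cell types lay within 1.5-fold of each other. MII oocytes stood 16.8-fold above GV oocytes, the largest such ratio among Usp genes at 0.5 FPKM or more in both kinds of oocyte. Usp48, which acts on histone H2A in human cells, ran the other way, with 38.6, 19.8, 22.6 and 16.2 FPKM. Usp11, which acts in repair with Brca2, was at 3.27, 12.2, 3.33 and 3.11 FPKM and stood out in FGSCs alone. Usp45, which acts on Ercc1, was at 1.35, 1.29, 2.53 and 8.01 FPKM, and Usp47, an enzyme of DNA polymerase beta, at 3.23, 5.26, 6.55 and 7.93 FPKM.

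The proteases of free ubiquitin and the proteasome were the only group whose sum was lower in both kinds of oocyte than in PGCs and in FGSCs, at 77.0 FPKM in PGCs, 113 in FGSCs, 27.6 in GV oocytes and 21.8 in MII oocytes. All 3 were at least 2-fold lower in GV oocytes than in FGSCs, as deposited and rescaled, where 28.0% and 38.6% of all genes were. Usp14, which sits on the proteasome and trims ubiquitin from its substrates, was at 69.7, 44.0, 12.4 and 9.91 FPKM. Usp5, which recycles ubiquitin from unanchored chains, was at 7.30, 67.3, 15.3 and 1.90 FPKM, so that FGSCs were 35.4-fold above MII oocytes. Its relative Usp13 was listed at 0 in PGCs and was at 1.98 FPKM in FGSCs, 0.0168 in GV oocytes and 9.94 in MII oocytes. Usp5 had 99.9% of the FPKM of the pair in GV oocytes and 16.1% in MII oocytes.

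Among the proteases of membranes and organelles the sum was 45.4 FPKM in PGCs, 61.8 in FGSCs, 169 in GV oocytes and 706 in MII oocytes. Most of the last value came from Usp46, which works with Wdr48 and a Wdr20 protein and is known for its part in glutamate receptor turnover. It was at 1.34 FPKM in PGCs, 6.39 in FGSCs, 40.1 in GV oocytes and 483 in MII oocytes, a 361-fold range that was the widest of any Usp gene above 0.5 FPKM in each cell type. Its near copy Usp12, which uses the same partners, was at 4.29, 1.53, 6.60 and 1.88 FPKM. Usp12 had 76.2% of the FPKM of the pair in PGCs, 19.3% in FGSCs, 14.1% in GV oocytes and 0.388% in MII oocytes. Of their partners, Wdr20a was at 10.7, 9.66, 32.7 and 564 FPKM and Wdr48 at 16.3, 19.6, 4.08 and 15.5 FPKM.

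Usp19, which is anchored in the endoplasmic reticulum, was at 3.99 FPKM in PGCs, 19.0 in FGSCs, 53.2 in GV oocytes and 138 in MII oocytes. Usp30, which lies in the outer mitochondrial membrane and opposes the clearance of mitochondria by Parkin, was at 1.53, 3.07, 37.9 and 41.5 FPKM. As deposited, its step lay between FGSCs and GV oocytes, at 12.3-fold, and the kinds of oocyte were close to each other. Usp33, an enzyme of receptor recycling, was at 9.80, 8.54, 6.40 and 20.7 FPKM. Usp20, its relative, was at 1.24, 4.61, 6.45 and 1.15 FPKM. The share of Usp20 in this pair was 50.2% in GV oocytes and 5.28% in MII oocytes. As deposited, Usp8, which sorts receptors at endosomes, was the most even gene of the family, with 20.5, 17.7, 14.5 and 14.4 FPKM. Evenness was not ranked after rescaling. Usp32, which acts on Rab7, was at 2.69, 0.912, 3.76 and 5.88 FPKM.

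The proteases of signalling pathways had summed levels of 102, 84.4, 88.8 and 522 FPKM in PGCs, FGSCs, GV oocytes and MII oocytes. Usp15, which acts on receptors and Smads of the TGF-beta pathway, was at 17.9 FPKM in PGCs, 16.1 in FGSCs, 15.2 in GV oocytes and 243 in MII oocytes. Its relative Usp4 was at 20.9, 26.7, 19.9 and 2.93 FPKM. As deposited, both were close to level over the first 3 cell types, though rescaled Usp4 was higher in FGSCs than in PGCs by 1.05. They parted in MII oocytes, where as deposited Usp15 was 16.0-fold above and Usp4 6.79-fold below the GV value. Usp4 therefore had 54.0%, 62.4% and 56.7% of the FPKM of the pair in PGCs, FGSCs and GV oocytes, and 1.19% in MII oocytes. The X-linked Usp9x, the counterpart of fat facets of the fly, was at 44.3, 32.9, 35.8 and 235 FPKM. Usp34, which acts on axin in the Wnt pathway, was at 14.4, 5.99, 17.7 and 41.2 FPKM. Usp25, the relative of Usp28, was at 4.56, 1.54, 0.277 and 0.604 FPKM and was highest in PGCs. Usp18, which removes the ubiquitin-like ISG15, was at 0.0303 FPKM in PGCs, 1.11 in FGSCs and listed at 0 in both kinds of oocyte.

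**Figure D3:**
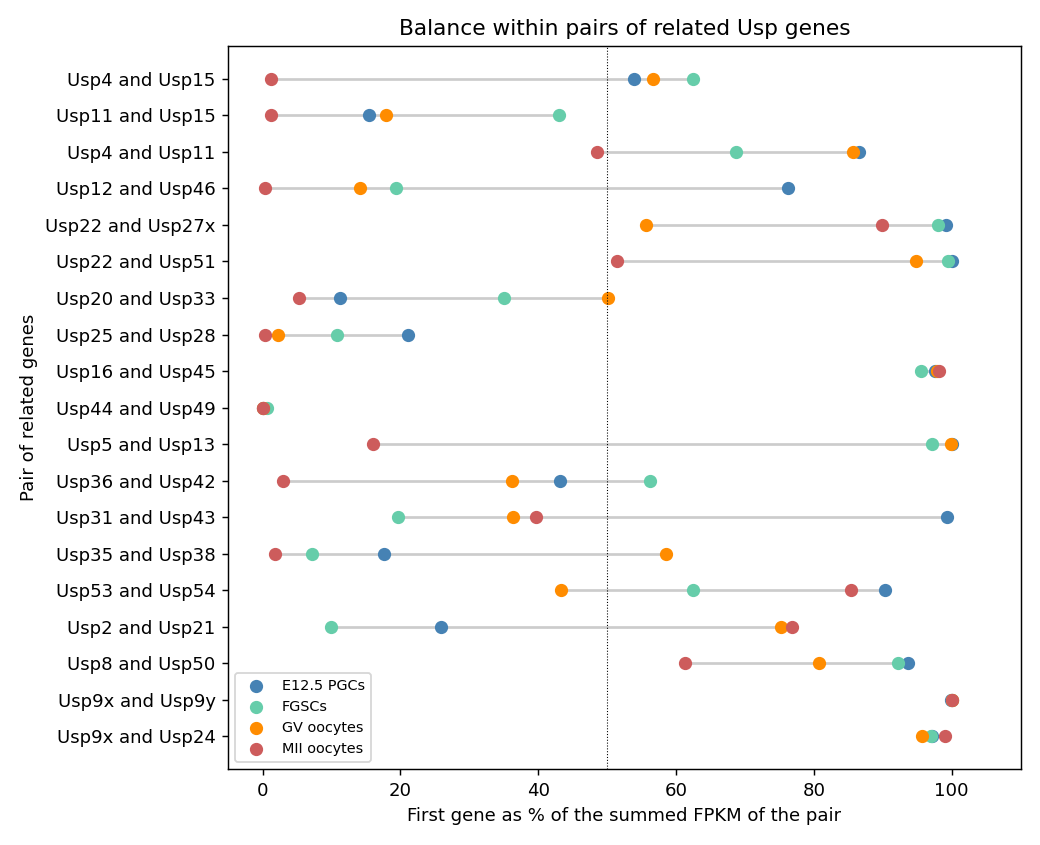
Share (%) of the summed FPKM of 2 related Usp genes that the gene named first took in PGCs, FGSCs, GV oocytes and MII oocytes, 1 pooled value each. The share of Usp4 beside Usp15 was 56.7% in GV oocytes and 1.19% in MII oocytes, and that of Usp5 beside Usp13 was 99.9% and 16.1%.

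Among the proteases of the cell cycle and of RNA, the summed levels were 117, 105, 153 and 632 FPKM. Usp2 was at 2.89 FPKM in PGCs, 6.59 in FGSCs, 91.3 in GV oocytes and 545 in MII oocytes. The differences were 0.97 between PGCs and FGSCs, 3.60 between FGSCs and GV oocytes and 2.56 between GV and MII oocytes. On the log2(FPKM + 1) scale the first of these was just below the threshold of 1. The ratio of its FPKM values was 2.28, and rescaled to a common sum the difference was 1.69. Usp37, which protects cyclin A from the anaphase-promoting complex, had another shape, with 72.1, 9.23, 5.93 and 54.7 FPKM. The highest values were those of the first and the last cell type, PGCs and MII oocytes. Usp10, which binds the stress granule protein G3bp1 and acts on p53, was at 23.9, 52.5, 17.1 and 27.6 FPKM, and its span in the tables covers 159 other rows, so its value is uncertain. Of the leading genes of the 4 cell types, Usp2 and Usp37 shared their spans with 5 other rows each, Usp16 with 1 and Usp5 with 0. The effect on their values was not tested. Usp39, a splicing factor that has lost its protease activity, was at 14.8, 31.2, 26.5 and 4.18 FPKM. The nucleolar Usp36 was at 3.34, 5.33, 12.2 and 0.875 FPKM. Both were lower in MII oocytes than anywhere else, and Usp36 showed the largest ratio of GV over MII oocytes in the family, 13.9.

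The remaining genes are less well described and most were low, with sums of 13.8, 13.0, 27.9 and 104 FPKM. Usp38 was at 0.881 FPKM in PGCs, 3.92 in FGSCs, 5.71 in GV oocytes and 46.7 in MII oocytes. Usp35, its relative, was at 0.189, 0.303, 8.07 and 0.860 FPKM. It was the more abundant of this pair in GV oocytes only, with 58.5%. Usp53, known from hearing loss in mice, was at 2.33, 1.23, 1.71 and 25.2 FPKM. Usp50, which lies in the same span of the tables as Usp8, was at 1.37, 1.50, 3.43 and 9.06 FPKM, and the transcripts of these 2 genes share no stretch of 50 bases. Usp40 was at 5.10, 2.42, 0.300 and 0.405 FPKM and was highest in PGCs. The other proteases of this group (Usp24, Usp26, Usp31, Usp43 and Usp54) were at most 8.15 FPKM, a value of Usp43, and each was highest in MII oocytes. The X-linked Usp26, known from the testis, was at 0.146, 0.139, 0.118 and 1.62 FPKM. Usp6nl, which shares the name but is a GTPase-activating protein of Rab proteins and no protease, was at 0.0747, 1.32, 0.761 and 1.29 FPKM.

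The genes that differed between GV and MII oocytes under every scaling were a smaller set. Higher in MII oocytes with the FPKM as deposited, rescaled to a common sum and centred on the median of all genes were 12 genes, namely Usp1, Usp2, Usp9x, Usp13, Usp15, Usp21, Usp28, Usp37, Usp38, Usp46, Usp51 and Usp53. Lower under all 3 were 8 genes, namely Usp4, Usp5, Usp12, Usp20, Usp27x, Usp35, Usp36 and Usp39. The share of all genes called under all 3 scalings was not computed. The other 11 that were called higher as deposited, Usp7, Usp16, Usp19 and Usp34 among them, were not called higher after rescaling. The ratio of MII over GV oocytes was 14.7 for Usp53, 12.05 for Usp46, 9.24 for Usp37 and 8.17 for Usp38, and that of GV over MII oocytes was 9.39 for Usp35, 9.26 for Usp27x and 8.02 for Usp5.

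**Figure D4:**
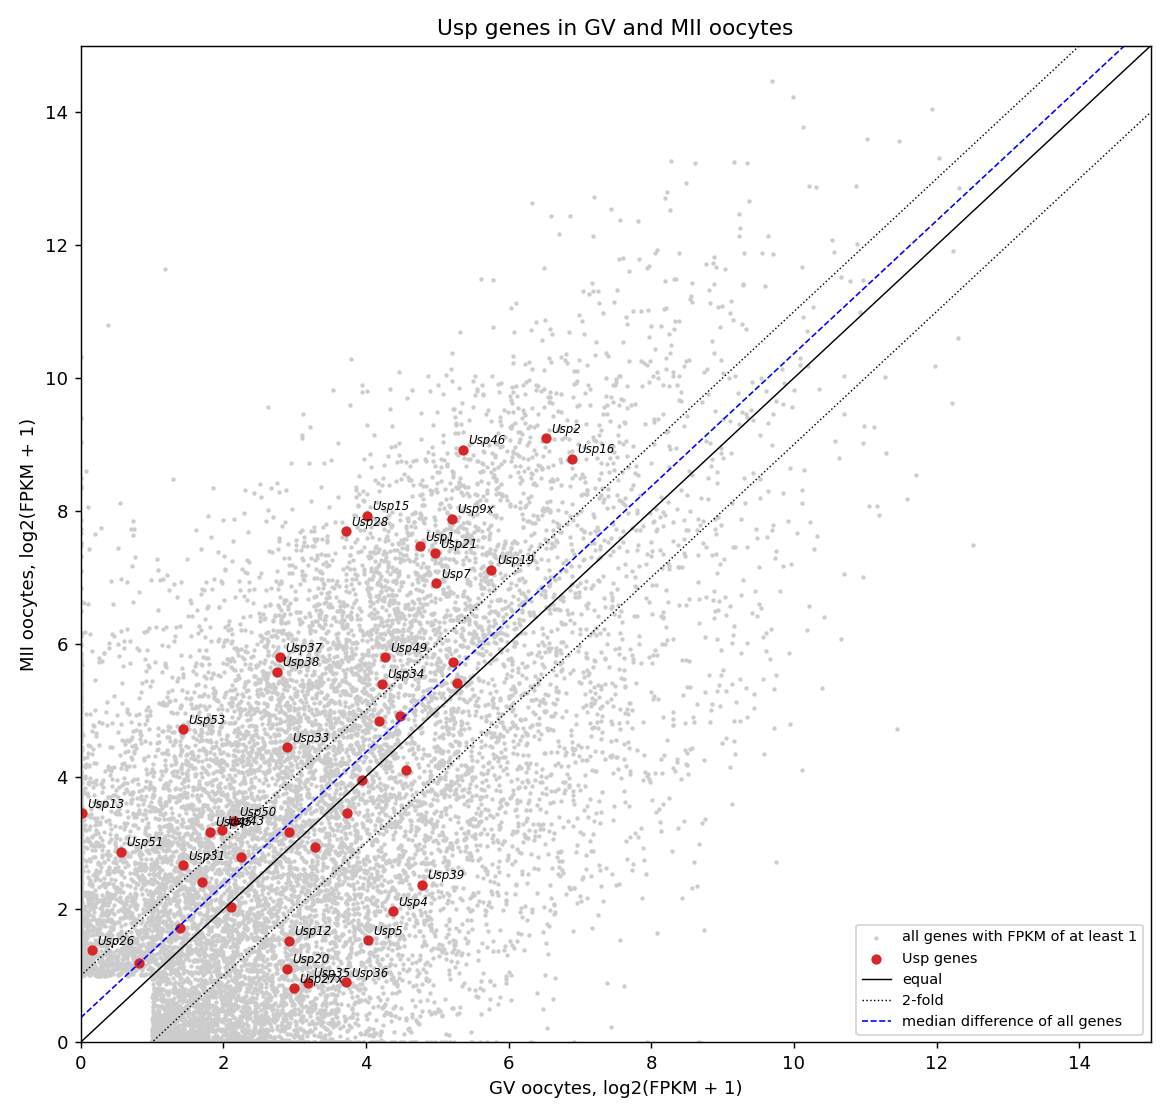
Level in MII oocytes against level in GV oocytes, both as log2(FPKM + 1), for all genes with at least 1 FPKM in one of them (grey) and for the Usp genes (red), with lines for equal levels, for 2-fold and for the median difference of all genes. Usp2, Usp46 and Usp16 lie at the upper right, and Usp36, Usp35 and Usp27x lie lowest among the genes beyond the lower 2-fold line.

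The 3′ ends of the transcripts were examined because the libraries were primed with oligo(dT) at the poly(A) tail and because stored mRNAs of oocytes carry sequence elements there. Cytoplasmic polyadenylation elements of the form TTTTAT or TTTTAAT were searched on the sense strand in the last 100 bases of 1 transcript per gene, and the polyadenylation signals AATAAA and ATTAAA in the last 50 bases. Windows of 30 bases of the 3′ untranslated region, within the last exon, are shown from the GENCODE M21 annotation of GRCm38, with these motifs in capitals. Usp28 and Usp22 hold both kinds of motif in their windows, Usp7 holds the element, 97 bases before the end, and no signal, and Usp15, Usp46, Usp9x, Usp5 and Usp36 hold a signal but no element. The set is shown because it holds genes called higher (Usp28, Usp7, Usp15, Usp46, Usp9x), lower (Usp36, Usp5) and neither (Usp22) in MII against GV oocytes.
Usp28: actatgcaggTTTTATaaatgtgcAATAAA
Usp7: gctTTTTAATaaccgtctctctttgtcagc
Usp22: atcatAATAAAgctgcaTTTTATtctgaaa
Usp15: atcAATAAAtgtAATAAAcatgttttggtc
Usp46: tttttctgcctaATTAAAtttctgttttct
Usp9x: atatacaaaAATAAAactttataaATTAAA
Usp5: atacatgatgtgAATAAAagtacgggggct
Usp36: agatcttggtgcAATAAAgtaatgcatttt
The windows lie at chr9:49042463-49042492 on the plus strand for Usp28, chr16:8690216-8690245 on the minus strand for Usp7, chr11:61151785-61151814 on the minus strand for Usp22, chr10:123105013-123105042 on the minus strand for Usp15, chr5:73998739-73998768 on the minus strand for Usp46, chrX:13173299-13173328 on the plus strand for Usp9x, chr6:124815021-124815050 on the minus strand for Usp5 and chr11:118259663-118259692 on the minus strand for Usp36.

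Few Usp genes held the element. Of the 45 compared between GV and MII oocytes, 3 held it (6.67%), namely Usp28, Usp7 and Usp22, where 19.1% of all genes did. It was in 2 of the 23 Usp genes called higher in MII oocytes (8.70%), in 0 of the 8 called lower and in 1 of the 14 within 2-fold. Over all genes it was in 27.5% of those called higher, 10.3% of those called lower and 17.4% of those within 2-fold, and the median difference was 1.26 in genes with the element and 0.01 in genes without it. The polyadenylation signal was in 35 of the 45 Usp genes (77.8%), beside 78.5% of all genes. A match is a run of letters in 1 annotated transcript, and the 3′ end used in these cells was not measured here.

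The other genes of the ubiquitin system give the setting for these levels. Of 34 other genes listed as deubiquitinases, 28 were compared between GV and MII oocytes. As deposited, 12 were higher and 5 lower, beside 39.3% and 30.5% of all genes. Their median was 0.85 where that of all genes was 0.37. Rescaled, 7 of 30 were higher and 11 lower, beside 23.7% and 45.7%. The most abundant in oocytes was Uchl1, a ubiquitin hydrolase, at 23.1 FPKM in PGCs, 45.4 in FGSCs, 5025 in GV oocytes and 1548 in MII oocytes. The summed level of all 51 Usp genes was thus below the level of Uchl1 alone in GV oocytes. Its relative Uchl3 was at 497, 95.0, 190 and 824 FPKM. Otub1, which blocks ubiquitin transfer, was at 347, 110, 194 and 276 FPKM. Psmd14, the deubiquitinase of the proteasome lid, was at 275, 72.9, 16.1 and 34.0 FPKM. As deposited, Psmd14 and Uchl3 were called higher in MII than in GV oocytes and Uchl1 lower. The others called higher in MII than in GV oocytes were Fam63a, Zufsp, Pan2, Zranb1, Otud6b, Otud4, Mysm1, Josd1, Stambp and Atxn3, with Fam63a at 245 FPKM in MII oocytes and 35.1 in GV oocytes. Pan2 is counted in this list but is a deadenylase of poly(A) tails and not an active deubiquitinase. The others called lower were Josd2, Otud5, Mpnd and Fam105b, with Josd2 at 95.3 FPKM in GV oocytes and 19.6 in MII oocytes.

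Of 15 partners and substrates of Usp proteins, 7 of the 14 compared were higher and 2 lower in MII than in GV oocytes as deposited, beside 39.3% and 30.5% of all genes. Rescaled, 3 were higher and 3 lower, beside 23.7% and 45.7%. The higher ones as deposited were Wdr20a, Mdm2, Eny2, Wdr48, Atxn7, G3bp2 and Stam2. Mdm2, the ubiquitin ligase of p53 on which Usp2 and Usp7 act, was at 35.6 FPKM in PGCs, 38.8 in FGSCs, 21.3 in GV oocytes and 148 in MII oocytes. G3bp2 was at 12.0, 23.2, 136 and 318 FPKM and G3bp1 at 53.0, 198, 34.8 and 48.4 FPKM. These relatives, which bind Usp10, thus had their highest values in different cell types, MII oocytes and FGSCs. The lower ones as deposited were Atxn7l3 and Hgs, an endosomal partner of the receptor sorting step at which Usp8 acts, with Hgs at 1.17, 26.9, 49.1 and 4.57 FPKM. Uhrf1, which binds Usp7, was at 1.73, 17.97, 332 and 178 FPKM.

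Of the genes for ubiquitin and its activating enzymes, Ubb and Rps27a were lower in MII than in GV oocytes and Uba6 was higher. Ubb, which encodes a chain of ubiquitin units, was at 6940 FPKM in PGCs, 1728 in FGSCs, 2477 in GV oocytes and 1031 in MII oocytes. Rps27a, which encodes ubiquitin fused to a ribosomal protein, was at 700, 632, 507 and 21.7 FPKM. Both were highest in PGCs and lowest in MII oocytes. Of the activating enzymes, Uba1 was at 55.0, 95.3, 61.3 and 86.4 FPKM, and Uba6 at 1.72, 2.01, 1.99 and 10.3 FPKM.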

How the data were processed

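RNA-seq of 9 libraries was used as 6 deposited tables, each comparing 2 of the 4 cell types. The FPKM values were computed by the authors and pooled over the libraries of a cell type. The submitters' processing notes list TopHat2, Cufflinks 2.2.1 and the mm9 build, where the paper's methods name mm10. Counts and depth were not used here, so precision could not be estimated. The tables also hold the authors' log2 ratios, test statistics, p-values and q-values for each pair of cell types, which were not used. The value of a cell type was the same in every table that holds it.

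Values were taken as log2(FPKM + 1), and 2 genes with a failed estimate were set aside in all comparisons. Ratios are given only where both values were at least 0.5 FPKM. Every Usp gene at 1 FPKM or more in 1 cell type is described by role or counted, and from the lists of other deubiquitinases, partners and ubiquitin genes the 6 most abundant and those past 2-fold in MII against GV oocytes are named. The members and lists were chosen with earlier results of these data known. Some genes that the symbol rule or these lists hold are not reported here. Transcript sequences came from GENCODE M21 (GRCm38), with a transcript for 51 of the 51 genes, and were not mixed with the mm9 coordinates of the tables. Alternatives changed the scaling, the pseudocount, the filter and the fold. The calculations ran in Python 3.11.15 with pandas 2.3.3, numpy 2.4.6 and matplotlib 3.10.9. The calling step was run on GV oocyte values with known changes put in. No noise was added, so their recovery was fixed in advance and checks the code only.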

Additional observations from a re-analysis of the deposited data

How the results depend on the processing

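No paired analysis was possible because the deposited columns hold 1 pooled value per cell type and carry no replicate number, and for the same reason no library could be left out. Depth was not used here, so the limit that counting error sets on low genes was not estimated. Rescaling each cell type to a common sum gave 3 lower Usp genes and a median of 0.57 in FGSCs against PGCs, 17 higher and a median of 0.79 in MII oocytes against FGSCs, and 12 higher and a median of 0.077 in MII against GV oocytes. In MII oocytes against FGSCs it reversed the difference of Usp33 to -0.27 and of Usp21 to -0.11. Of 268 differences of single genes, rescaling took 32 below 2-fold and 24 past it, and centring on the median of all genes took 16 below and 6 past it. At a fold of 4, 3 genes were higher and 1 lower in FGSCs against PGCs, 7 higher in GV oocytes against PGCs, 4 lower in MII oocytes against PGCs, 8 higher and 2 lower in GV oocytes against FGSCs, 5 lower in MII oocytes against FGSCs, and 12 higher in MII against GV oocytes. At a fold of 1.5, 13 were lower in FGSCs against PGCs. With a filter at 5 FPKM, 7 were higher and 3 lower in FGSCs against PGCs and 5 lower in GV oocytes against FGSCs. No share of all genes was computed for these folds or this filter. With no filter the median in MII against GV oocytes was 0.53, and with a pseudocount of 0.1 the median in MII oocytes against FGSCs was 2.46. At 5 FPKM, 20 Usp genes were detected in PGCs and 25 in FGSCs. Summing the rows of a repeated symbol could change no call, because no Usp symbol was repeated. Taking values from the table of each comparison could change none either, because the values were the same. Leaving out Usp6nl and the Usp17 group leaves the calls of the other genes as they are by construction.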
